A study of Mus musculus with 6 samples.

Results

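The interferon response and RNA sensor genes described here are 36 genes, taken by symbol from a list of interferon-stimulated genes, transcription factors of the STAT and IRF families, and sensors of double-stranded RNA. Each of the 36 symbols matched 1 row of the count and TPM tables, which hold 57508 rows. Expression was measured by RNA sequencing in KPC1199 cells, a mouse line labelled as pancreatic tumour cells, in 3 libraries with the genotype WT and 3 with the genotype ACSL5 knockdown. The library names start with siACSL5 in both groups and go on with CY3 in WT and with a numeric code in knockdown. The labels do not explain these additions or say what the WT cells received, and the titles call the knockdown libraries KO. No label says whether libraries of a group came from separate cultures, so p-values measure the spread between libraries, which may be technical. The comparison asks whether genes that respond to interferon or foreign RNA differed between the knockdown and WT libraries. A response that both groups share cannot be seen in this comparison, and libraries of untreated cells were not analysed here.

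Cells detect foreign RNA with toll-like receptor 3 in endosomes and with the cytosolic helicases RIG-I and MDA5, which signal through the mitochondrial adaptor MAVS. These routes activate IRF3 and IRF7, which switch on type I interferon genes. Secreted interferon acts on its receptor and on JAK kinases, and a complex that contains STAT2 and IRF9 binds the interferon-stimulated response element (ISRE) in the promoters of antiviral genes. Interferon gamma acts instead at gamma-activated sites (GAS). Transfected duplex RNA can engage these sensors, in a manner that depends on its length, ends and sequence.

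The promoters below are shown because ISRE letters are a sequence feature of the pathway that some members hold. They belong to members with different results. They are the 250 bases before the annotated start of RefSeq, on GRCm38.p6, written 5′ to 3′ in the direction of the gene. Capitals mark letters that match GAAANNGAAA, a form of the ISRE core, on either strand, so a match on the opposite strand reads as its reverse complement, and overlapping matches run together. Bst2 (chr8:71537473-71537722, minus strand) rose in knockdown cells when WT replicate 1 was left out, Ifitm2 (chr7:140955962-140956211, minus strand) and Ifitm3 (chr7:141010745-141010994, minus strand) fell there, and Isg15 (chr4:156200819-156201068, minus strand) and Ifit1 (chr19:34640639-34640888, plus strand) were not called.
Bst2: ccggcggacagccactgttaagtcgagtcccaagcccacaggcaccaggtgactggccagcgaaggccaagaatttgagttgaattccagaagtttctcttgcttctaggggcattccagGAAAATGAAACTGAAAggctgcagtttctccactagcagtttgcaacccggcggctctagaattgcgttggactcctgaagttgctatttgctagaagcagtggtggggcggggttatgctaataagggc
Isg15: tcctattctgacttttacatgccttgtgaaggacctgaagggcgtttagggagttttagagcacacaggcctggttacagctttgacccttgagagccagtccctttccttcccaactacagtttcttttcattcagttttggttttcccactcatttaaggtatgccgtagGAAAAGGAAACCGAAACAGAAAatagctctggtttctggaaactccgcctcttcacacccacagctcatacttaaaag
Ifit1: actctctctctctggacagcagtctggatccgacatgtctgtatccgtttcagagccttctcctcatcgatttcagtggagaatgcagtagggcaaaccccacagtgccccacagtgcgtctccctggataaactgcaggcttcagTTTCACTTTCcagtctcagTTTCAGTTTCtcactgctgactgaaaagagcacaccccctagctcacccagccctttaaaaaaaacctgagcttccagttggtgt
Ifitm2: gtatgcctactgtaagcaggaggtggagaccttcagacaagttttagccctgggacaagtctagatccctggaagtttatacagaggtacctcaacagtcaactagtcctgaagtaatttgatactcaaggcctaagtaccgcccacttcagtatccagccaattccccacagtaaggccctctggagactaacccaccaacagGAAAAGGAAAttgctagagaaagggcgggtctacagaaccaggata
Ifitm3: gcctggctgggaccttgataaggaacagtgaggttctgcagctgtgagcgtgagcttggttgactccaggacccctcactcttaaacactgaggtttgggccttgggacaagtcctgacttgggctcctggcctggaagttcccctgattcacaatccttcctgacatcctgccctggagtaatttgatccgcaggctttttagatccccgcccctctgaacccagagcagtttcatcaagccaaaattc

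In Bst2 the matches start at -130 and -124 relative to the annotated start, in Isg15 at -78, -72 and -66, in Ifit1 at -104 and -85, and in Ifitm2 at -46. Ifitm3 has no match in this window. RefSeq windows were at hand for 29 of the 36 members, and 10 of these 29 (34.5%) hold a match, namely Bst2, Gbp2, Gbp3, Ifit1, Ifit3, Ifitm2, Isg15, Oas1a, Rsad2 and Stat2. Among all 27025 genes with a window, 936 (3.46%) hold one. The GAS letters TTCNNNGAA, which read the same on both strands, occur in 6 of the 29 members (20.7%) and in 8.13% of all genes with a window. Of the 10 members with ISRE letters, 5 had a mean below 1 TPM in these cells, and the median of their means was 1.37 TPM. The 19 members without a match had a median of 10.2 TPM, and 2 of them were below 1 TPM. TPM is a level scaled for transcript length and library size, and it is the unit used wherever levels of different genes are compared.

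Libraries totalled between 21794244 and 29996194 expected counts. Acsl5, the target of the knockdown, was at 342, 265 and 270.2 CPM in WT replicates 1, 2 and 3 and at 49.8, 55.6 and 57.2 CPM in knockdown replicates 1, 2 and 3, so 18.5% of the WT mean was left (exact two-sided permutation test, p = 0.1, the smallest that 3 against 3 libraries allow). Of 8 epithelial and ductal markers, 7 had a mean of at least 1 TPM, with Krt19 between 3774 and 5206 TPM, and Cldn4 was at 0. Of 6 macrophage markers, only Cd68 had such a mean, and the summed level of the 6 was 3.55 to 6.53 TPM in WT and 7.19 to 8.59 TPM in knockdown libraries. Its part in the results below was not tested, and in bulk RNA fewer cells of a type and less RNA per cell cannot be told apart. Ptprc, the pan-leukocyte gene, did not exceed 0.03 TPM in any library. Of 4 markers of plasmacytoid dendritic cells, a main source of interferon in the body, Siglech was at 0 and only Tcf4 had a mean of at least 1 TPM (sum 4.53 to 18.9 TPM in WT, 18.5 to 19.2 TPM in knockdown). Markers of T cells and endothelium summed to at most 0.12 TPM in a library, and those of acinar cells to at most 6.24 TPM. Of 6 fibroblast markers, 3 had a mean of at least 1 TPM (Col1a1, Pdgfra and Pdgfrb), and Lum was at 0. The 6 summed to 7.97 to 31.4 TPM in WT and 21.5 to 24.2 TPM in knockdown libraries. Pdgfra was at 5.92, 20.25 and 24.7 TPM in WT and at 13.16, 14.69 and 14.44 TPM in knockdown libraries. Pdgfrb was at 1.13, 3.56 and 3.9 TPM in WT and at 5.61, 6.85 and 6.51 TPM in knockdown libraries.

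A single library, WT replicate 1, lay apart, and in the members the difference followed gene length. Its log2 CPM values correlated across genes with those of the other libraries at 0.819 to 0.851, whereas the other pairs reached 0.959 to 0.996. Among the 21 members with a mean of at least 5 CPM, the 7 with a length under 1500 bases in the deposited table were all higher in WT replicate 1 than in the mean of WT replicates 2 and 3, by 0.36 to 1.62 on the log2 scale. Of the 14 longer members, 12 were lower, with a median of -0.60 and a lowest value of -1.10 for Dtx3l. Ifitm3 (678 bases) was at 1.62, Ifi35 (1362 bases) at 1.48 and Tlr3 (4407 bases) at -0.93. Results are therefore given with all 6 libraries and without WT replicate 1.

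**Figure D1:**
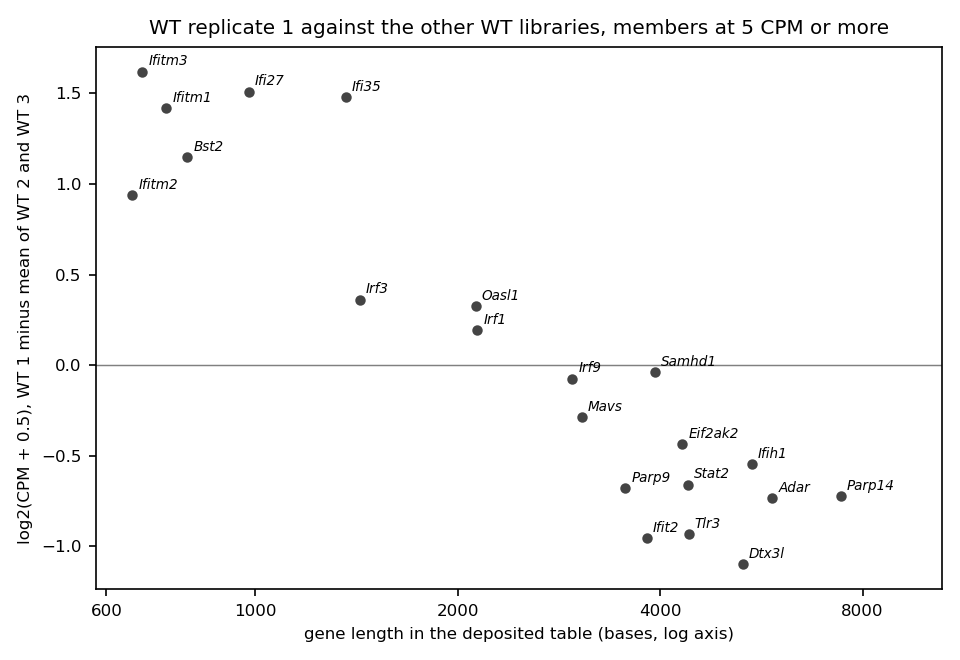
Each point is 1 of the 21 members with a mean of at least 5 CPM, plotted by gene length (bases, log axis) against log2(CPM + 0.5) of WT replicate 1 minus the mean of WT replicates 2 and 3. The 7 members under 1500 bases lie above 0, and 12 of the 14 longer members lie below 0.

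The levels of the members spanned several orders of magnitude, and many classical induced genes were barely detected in either group. The membrane proteins Ifitm2, Ifitm3 and Ifitm1, which restrict entry of enveloped viruses, were the most abundant, with means over 6 libraries of 918, 512 and 438 TPM. They were followed by Ifi27 (55.1 TPM), the nucleotide hydrolase gene Samhd1 (52.3 TPM), Irf1 (41.6 TPM) and Ifi35 (39.2 TPM). In all, 14 members had a mean of at least 10 TPM and 10 had a mean below 1 TPM. The low group held the GTPase genes Mx1, Mx2 and Gbp3, the cap-binding Ifit1 and its relative Ifit3, the oligoadenylate synthetase gene Oas1a, the ISG15 protease gene Usp18, Ifi44, Cmpk2 and Rsad2. These low members are among the genes that interferon induces most strongly in many cell types.

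**Figure D2:**
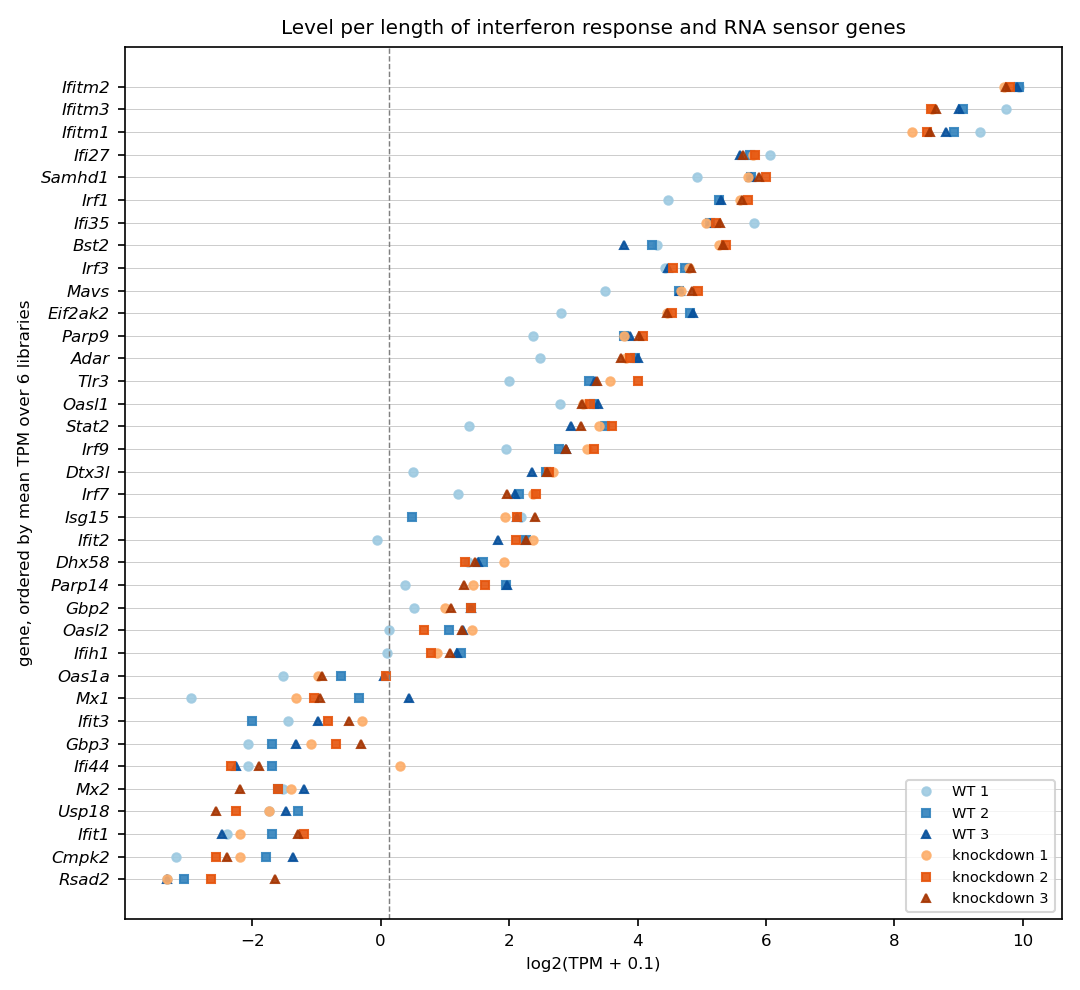
The 36 members are ordered by mean TPM, with log2(TPM + 0.1) of each library on the horizontal axis and 1 symbol per library; the dashed line marks 1 TPM. Ifitm2, Ifitm3 and Ifitm1 lie at the top, and 10 members have means over the 6 libraries below 1 TPM.

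Without WT replicate 1, the members moved in both directions, as all genes did, and not as a block. Of 31 members tested, 4 rose in knockdown cells (Bst2, Tlr3, Irf1 and Samhd1), 5 fell (Ifitm2, Ifitm3, Eif2ak2, Ifih1 and Parp14) and 22 were not called. The called share was 29.0%, close to the 34.3% of all 15152 genes called in the same fit. Of all genes, 16.3% were called higher and 18.0% lower. The median log2 fold change, knockdown minus WT, was 0.10 in the members and -0.0090 in all genes tested, and the median of its absolute value was 0.24 in each of these sets. With all 6 libraries 0 of 30 members tested were called by edgeR, as were 0.0% of all 14679 genes, while 3 members and 2350 genes had an unadjusted p below 0.05. DESeq2 on the 6 libraries called 0 members, with 4 at an unadjusted p below 0.05, while it called 7.68% of all genes (3.90% higher and 3.78% lower). With limma-voom 0 members and 8 genes were called, and 2 members had an unadjusted p below 0.05.

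Bst2, which encodes tetherin, a protein that holds budding virus particles at the cell surface, had the largest called change. It was at 13.8, 6.92 and 5.13 CPM in WT replicates 1, 2 and 3 and at 13.3, 15.1 and 15.3 CPM in knockdown replicates 1, 2 and 3. On this scale WT replicate 1 lay within the knockdown range, and the other WT libraries lay below it. In TPM the groups did not overlap, with 19.7, 18.7 and 13.7 in WT and 38.2, 41.7 and 40.2 in knockdown libraries. In the fit without WT replicate 1 Bst2 rose 2.41-fold, a log2 fold change of 1.27 with an SE of 0.149 (adjusted p = 1.49e-04 in edgeR). The knockdown mean was 14.6 ± 1.12 CPM (SD, n = 3), set against 6.02 ± 1.26 CPM (SD, n = 2) for WT replicates 2 and 3. With all 6 libraries it was 0.76 (adjusted p = 0.370), and 1.24 (adjusted p = 0.0146) once each library's trend with gene length had been removed. The promoter of Bst2 printed above holds ISRE letters, as do those of Isg15 and Ifit1, whose changes were not called.

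The other abundant membrane proteins went the opposite way. Ifitm3 was at 475, 155 and 152 CPM in WT replicates 1, 2 and 3 and at 102, 108 and 122 CPM in knockdown replicates 1, 2 and 3. Ifitm2 was at 516, 270.1 and 269 CPM in WT and at 208, 238 and 245 CPM in knockdown libraries. Ifitm1 was at 349, 134 and 127 CPM in WT and at 74.1, 98.9 and 109 CPM in knockdown libraries. For each of these genes every knockdown library lay below every WT library, in CPM and in TPM, and WT replicate 1 was the highest library in CPM. In the fit of 5 libraries the log2 fold change was -0.49 for Ifitm3 (SE 0.0761, adjusted p = 0.00145) and -0.24 for Ifitm2 (SE 0.0729, adjusted p = 0.0348). The Ifitm2 call was lost with library totals (adjusted p = 0.0548), on log2(TPM + 1) (adjusted p = 0.0665) and without WT replicate 2 (adjusted p = 0.157) or WT replicate 3 (adjusted p = 0.154). Ifitm1 was at -0.48 (SE 0.200, adjusted p = 0.160) and was not called, with knockdown replicate 1 the lowest library. Ifitm1 passed the threshold in 6 of 17 alternatives of this fit. Among them were log2(TPM + 1) (-0.42, adjusted p = 0.0471), removal of the length trend (-0.48, adjusted p = 0.0136) and leaving out knockdown replicate 1 (-0.32, adjusted p = 6.1e-05). Over all libraries the values were -1.24, -0.61 and -1.11 for Ifitm3, Ifitm2 and Ifitm1, none of them called. Ifitm3 was called over the 6 libraries once the length trend had been removed (-0.62, adjusted p = 0.0441). The Ifitm genes lie side by side on chromosome 7 and resemble one another, so reads may have been divided between them.

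**Figure D3:**
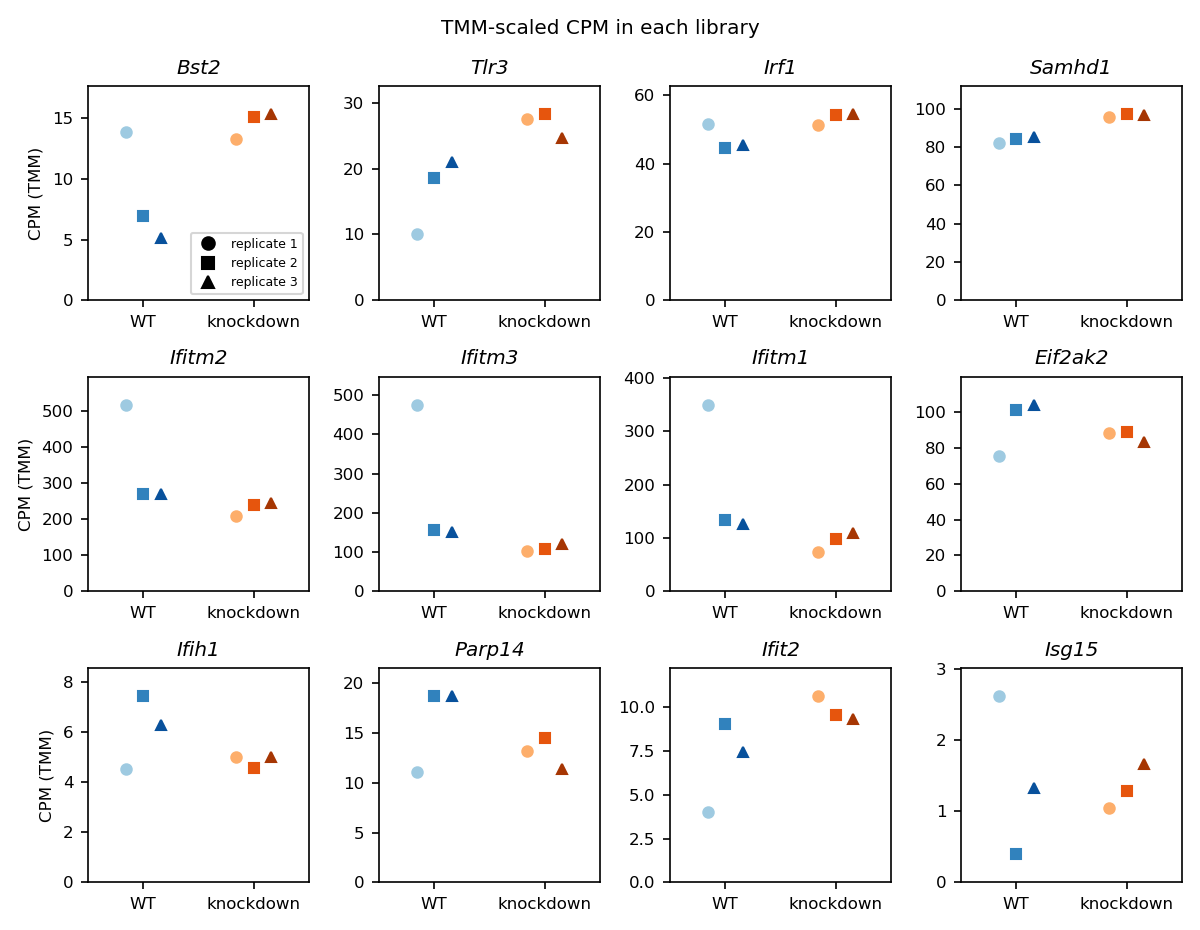
Each panel shows TMM-scaled CPM (vertical axes start at 0) of 1 gene in the 3 WT and 3 knockdown libraries, with symbols for replicates 1, 2 and 3. WT replicate 1 is the highest library for Ifitm2, Ifitm3, Ifitm1 and Isg15 and the lowest for Tlr3, Samhd1, Eif2ak2, Ifih1, Parp14 and Ifit2.

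Among the RNA sensors, Tlr3 rose and Ifih1 fell. Tlr3, the endosomal receptor for double-stranded RNA, was at 10.1, 18.6 and 21.0 CPM in WT replicates 1, 2 and 3 and at 27.5, 28.3 and 24.6 CPM in knockdown replicates 1, 2 and 3. The groups did not overlap with all 6 libraries, and the log2 fold change without WT replicate 1 was 0.42 (SE 0.0934, adjusted p = 0.00581). Without both WT replicates 1 and 2 it was 0.33 (adjusted p = 0.0825), and the call was also lost on log2(TPM + 1) (0.33, adjusted p = 0.266). Ifih1, which encodes MDA5, was at 4.53, 7.45 and 6.30 CPM in WT and at 4.996, 4.57 and 5.02 CPM in knockdown libraries. WT replicate 1 lay below the knockdown libraries and the other WT libraries lay above them. Its log2 fold change without WT replicate 1 was -0.51 (95% interval -0.84 to -0.18, adjusted p = 0.0230), and the call was lost when any of WT replicate 2, WT replicate 3, knockdown replicate 2 or knockdown replicate 3 was also left out (adjusted p from 0.0524 to 0.208). It was also lost with the GC trend removed (-0.38, adjusted p = 0.0786) and on log2(TPM + 1) (-0.21, adjusted p = 0.345).

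Dhx58, which encodes LGP2, a regulator of RIG-I and MDA5, was at 5.73, 3.99 and 3.86 CPM in WT and at 3.23, 3.32 and 3.39 CPM in knockdown libraries. All knockdown libraries were below all WT libraries in CPM, but not in TPM, and the gene was not called (log2 fold change -0.26, 95% interval -0.65 to 0.14, without WT replicate 1). The adaptor gene Mavs was at 38.1, 46.4 and 46.8 CPM in WT and at 48.6, 56.4 and 53.3 CPM in knockdown libraries. The groups did not overlap, and the log2 fold change of 0.17 (SE 0.0735, adjusted p = 0.109) missed the threshold without WT replicate 1. Mavs passed it in that fit with no filter (0.18, adjusted p = 0.0447) and when knockdown replicate 1 was also left out (0.24, adjusted p = 0.00353).

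Of the 5 transcription factors, only Irf1 was called, by a small amount. Irf1, which is induced by interferon and by NF-kB signalling, was at 51.7, 44.8 and 45.5 CPM in WT replicates 1, 2 and 3 and at 51.3, 54.3 and 54.6 CPM in knockdown replicates 1, 2 and 3. WT replicate 1 overlapped the knockdown libraries in CPM, whereas in TPM all knockdown libraries were higher. The log2 fold change without WT replicate 1 was 0.23 (SE 0.0614, adjusted p = 0.0157), and adjusted p was 0.118 without WT replicate 2 and 0.0979 without WT replicate 3 as well. Of its 2 RefSeq promoter windows, 1 holds the GAS letters and 0 the ISRE letters.

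The remaining factors did not pass the test. Stat2, a subunit of the ISRE-binding complex, was at 12.2, 20.7 and 18.6 CPM in WT and at 20.5, 20.5 and 18.8 CPM in knockdown libraries. Its log2 fold change without WT replicate 1 was 0.0079, with a 95% interval of -0.20 to 0.21. Irf9, which brings the complex to DNA, was at 0.18 (95% interval -0.07 to 0.42). Irf7, which amplifies interferon production and is itself strongly interferon-inducible, ranged from 4.41 to 4.92 CPM in WT and from 4.61 to 5.63 CPM in knockdown libraries, at a log2 fold change of 0.13 (95% interval -0.23 to 0.49). Irf3, which acts first in the response to viral RNA and is present before it, was at 0.11 (95% interval -0.11 to 0.34).

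Enzymes that act on RNA or nucleotides were divided. Eif2ak2 encodes PKR, a kinase that binds double-stranded RNA and stops translation. It was at 75.5, 101 and 104 CPM in WT replicates 1, 2 and 3 and at 88.2, 88.6 and 83.2 CPM in knockdown replicates 1, 2 and 3. The knockdown libraries lay between WT replicate 1 and the other WT libraries. The log2 fold change without WT replicate 1 was -0.26 (SE 0.0505, adjusted p = 0.00287), and it was -0.14 (adjusted p = 0.0547) with the GC trend removed. Samhd1, which hydrolyses deoxynucleotides, was at 82.3, 84.0 and 85.1 CPM in WT and at 95.9, 97.2 and 96.9 CPM in knockdown libraries. The spread within each group was below 3 CPM and the groups did not overlap, and the value without WT replicate 1 was 0.18 on the log2 scale (SE 0.0485, adjusted p = 0.0162). In TPM the Samhd1 groups overlapped, and the call was lost there (0.10, adjusted p = 0.459, on log2(TPM + 1)) and without WT replicate 2 (adjusted p = 0.136) or WT replicate 3 (adjusted p = 0.110). Adar, which edits adenosines in double-stranded RNA, was at 28.3, 47.1 and 47.6 CPM in WT and at 43.2, 45.2 and 39.5 CPM in knockdown libraries. Its log2 fold change was -0.17 (SE 0.0689, adjusted p = 0.0852) without WT replicate 1 and 0.055 with it. With the GC trend removed, Adar was called lower without WT replicate 1 (-0.21, adjusted p = 0.0408).

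Parp14, an ADP-ribosyltransferase, was at 11.1, 18.7 and 18.7 CPM in WT replicates 1, 2 and 3 and at 13.2, 14.5 and 11.4 CPM in knockdown replicates 1, 2 and 3. WT replicates 2 and 3 were higher than every knockdown library, and WT replicate 1 was the lowest of all. It had the lowest log2 fold change of the called members without WT replicate 1, -0.54 (SE 0.112, adjusted p = 0.00402), and was not called on log2(TPM + 1) (-0.39, adjusted p = 0.0933). The neighbouring pair Parp9 and Dtx3l, whose products form an ADP-ribosylating ubiquitin ligase, were at 0.08 (95% interval -0.11 to 0.27) and 0.15 (95% interval -0.07 to 0.37), and neither was called.

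The IFIT, ISG15, GTPase and oligoadenylate synthetase genes are usual readouts of an interferon response. In the fit without WT replicate 1, 0 of their 10 tested members were called, where 34.3% of all genes were called. Ifit1, Ifit3, Mx1, Gbp3 and Oas1a had means below 1 TPM, and few reads limit what can be called at such levels. Under alternatives of that fit, Oasl1 was called lower with the GC trend removed (-0.36, adjusted p = 0.0232) and with the length and GC trends removed (-0.38, adjusted p = 0.0157). Ifit2 was called higher with the length and GC trends removed (0.38, adjusted p = 0.0454). Ifit2, which binds viral RNA, was the best measured IFIT gene. It was at 3.99, 9.04 and 7.43 CPM in WT and at 10.6, 9.51 and 9.30 CPM in knockdown libraries. All knockdown libraries were higher in CPM, but not in TPM, with WT replicate 1 far below the rest. The log2 fold change of Ifit2 without WT replicate 1 was 0.24 (95% interval -0.05 to 0.53, adjusted p = 0.191). Isg15, a ubiquitin-like modifier, was at 2.62, 0.399 and 1.33 CPM in WT and at 1.05, 1.29 and 1.66 CPM in knockdown libraries. WT replicate 2 was the lowest and WT replicate 1 the highest, so the WT libraries spanned the knockdown range. Its log2 fold change was 0.57 without WT replicate 1 (95% interval -0.48 to 1.61) and -0.10 with it.

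The weaker members of these families were counted from few reads. Ifit3 had 9.5, 3.51 and 13.2 expected counts in WT and 17.7, 13 and 17 in knockdown libraries, with a log2 fold change of 0.97 (95% interval -0.24 to 2.17) without WT replicate 1. Mx1 had 2, 17.2 and 10 expected counts in WT and 8, 19 and 19 in knockdown libraries (0.14, 95% interval -1.07 to 1.35). In TPM, Mx1 was at 0.03, 0.69 and 1.26 in WT and at 0.30, 0.39 and 0.42 in knockdown libraries. WT replicates 2 and 3 thus lay above the knockdown libraries on that scale. The intervals of Ifit3 and Mx1 include 0 and reach above 1 on the log2 scale. Gbp3 was at 0.56 (95% interval -0.59 to 1.71), Gbp2 at -0.26 (95% interval -0.69 to 0.16), Oasl1 at -0.22 (95% interval -0.45 to 0.0069), Oasl2 at -0.27 (95% interval -0.75 to 0.22) and Oas1a at -0.36 (95% interval -1.45 to 0.73). Ifi35 was at -0.021 (95% interval -0.23 to 0.18) and Ifi27 at 0.10 (95% interval -0.11 to 0.31). With all 6 libraries these last 2 genes, which are short and were high in WT replicate 1, were at -0.69 and -0.59, not called.

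**Figure D4:**
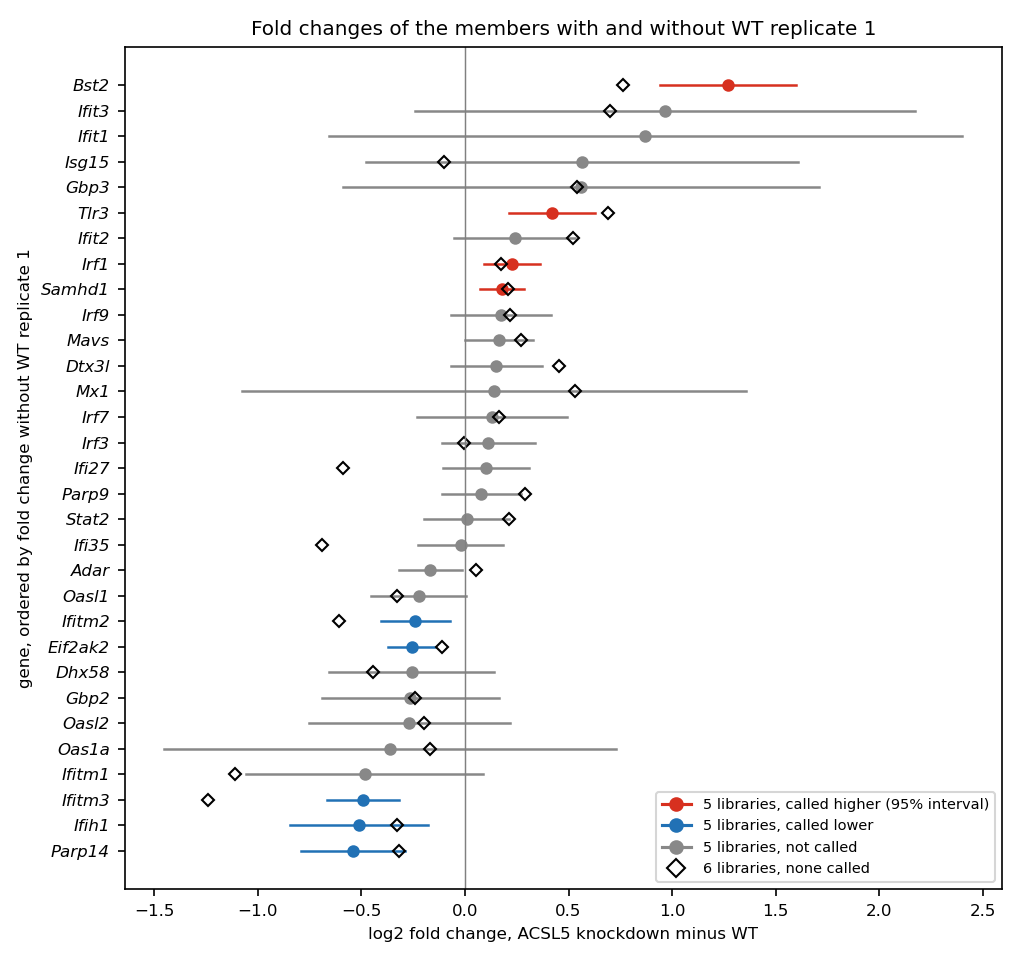
Filled circles give the log2 fold change, knockdown minus WT, of the 31 members tested without WT replicate 1, with 95% intervals and colours for called higher, called lower or not called; open diamonds give the value over 6 libraries for the 30 members tested there. Bst2 lies highest at 1.27, and Parp14 lowest at -0.54.

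The 6 members left out of the fit of 6 libraries had 1 to 34 counts summed over a group. For Rsad2, which encodes viperin, the sum was 1 count in WT and 10 in knockdown libraries, 4 and 6 of them in knockdown replicates 2 and 3 and 0 in knockdown replicate 1. The ratio of rates per total count of the libraries was 9.83, with an exact 95% interval of 1.40 to 427 that covers counting error only. Ifit1 had 17 counts in WT and 34 in knockdown libraries, a ratio of 1.97 (1.07 to 3.75), and its log2 fold change in the fit without WT replicate 1 was 0.87 (95% interval -0.66 to 2.40, adjusted p = 0.368). The ratios of the others were 0.983 for Ifi44 (0.472 to 2.05), 0.668 for Mx2 (0.339 to 1.29), 1.23 for Usp18 (0.437 to 3.58) and 0.737 for Cmpk2 (0.351 to 1.51). Intervals of these 4 genes include 1, and a difference was not detectable at this depth.

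Complete separation of the groups was counted as a further description of the members. With 6 libraries, all knockdown libraries lay above all WT libraries in CPM for 5 members (Samhd1, Mavs, Tlr3, Irf9 and Ifit2) and below them for 6 (Ifitm1, Ifitm2, Ifitm3, Oasl1, Dhx58 and Gbp2), of 30 tested. Over all 14679 genes 34.3% were separated in this way, 18.7% higher and 15.6% lower. With 5 libraries 9 of 31 members were separated upwards and 11 downwards, where 59.8% of all genes were separated, 30.4% higher and 29.3% lower. In TPM with 6 libraries, 7 of the 30 were separated upwards (Bst2, Irf1, Tlr3, Mavs, Dtx3l, Ifit3 and Gbp3) and 3 downwards (Ifitm1, Ifitm2 and Ifitm3). Over all genes 31.3% were separated in TPM, 25.6% higher and 5.61% lower. Tlr3, Mavs and the 3 Ifitm genes were thus the members separated on both scales.

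The other genes of the pathway, 141 in the tables, moved in both directions as well. In the fit of 5 libraries, 14 of 96 tested were called higher and 18 lower (33.3%, against 34.3% of all genes), and with 6 libraries 0 of 95 were called by edgeR, with 14 at an unadjusted p below 0.05. DESeq2 called 4 of these genes over 6 libraries, all lower, with 19 at an unadjusted p below 0.05, and 7.68% of all genes. Of 20 interferon ligand genes, 16 had 0 counts in all 6 libraries, Ifnb1 among them, which allows up to 0.164 TMM-scaled CPM in WT replicate 1, where 3 counts are worth the most, and less in the other libraries. The other 4, Ifnab, Ifne, Ifnk and Ifnz, had at most 9.36 expected counts in a library. Among the interferon-inducible chemokine genes of the lists, Ccl5 and Cxcl9 had 0 counts in all libraries and Cxcl11 at most 1.76 expected counts in a library. Cxcl10 had 7, 1 and 5 counts in WT replicates 1, 2 and 3 and 6, 11 and 12 counts in knockdown replicates 1, 2 and 3. WT replicate 1 lay within the knockdown range and the other WT libraries below it. The log2 fold change of Cxcl10 without WT replicate 1 was 1.69 (95% interval 0.014 to 3.36, unadjusted p = 0.0485, adjusted p = 0.111), and it was not called.

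Of 15 receptors and kinases, 2 rose and 4 fell (40.0%, against 34.3% of all genes), with a median log2 fold change of 0.030. Jak2, a kinase of the interferon gamma receptor, was at 50.8, 69.1 and 73.0 CPM in WT replicates 1, 2 and 3 and at 47.1, 52.4 and 50.4 CPM in knockdown replicates 1, 2 and 3 (-0.52, SE 0.0642, adjusted p = 1.89e-04). The feedback inhibitor gene Socs3 was at 0.43, the receptor chain gene Ifngr1 at 0.40 and the phosphatase gene Ptpn6 at -0.30. Ifnar1, the type I interferon receptor chain, fell by a smaller amount (-0.20). Of 16 sensors, adaptors and kinases upstream of interferon that were tested, 3 rose and 4 fell, with a median of -0.022. The called share was 43.8%, against 34.3% of all genes.

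Sting1, the adaptor of cytosolic DNA sensing, was at 77.6, 65.4 and 63.4 CPM in WT and at 39.2, 45.3 and 47.2 CPM in knockdown libraries (-0.57, SE 0.0825, adjusted p = 6.93e-04). Each knockdown library was below each WT library in CPM, but not in TPM. The kinase adaptor gene Azi2 was at -0.46, the toll-like receptor chaperone gene Unc93b1 at 0.41 and the kinase gene Ikbke at -0.36. Ddx58, which encodes RIG-I, was at 19.1, 27.2 and 26.1 CPM in WT and at 23.5, 22.2 and 20.3 CPM in knockdown libraries and fell by 0.29 on the log2 scale without WT replicate 1 (adjusted p = 0.0224). WT replicate 1 was below every knockdown library for this gene.

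Of 65 further interferon-stimulated genes tested, 9 rose and 10 fell (29.2%, against 34.3% of all genes), with a median of 0.029. The largest called changes were in Trim30a (0.83), Ifi203 (-0.73), Mndal (-0.70) and Irgm2 (0.65). Ifi203 and Mndal belong to the HIN-200 family of DNA-binding proteins, lie in 1 cluster and share sequence. Ifi203 was at 28.2, 41.2 and 43.9 CPM in WT and at 24.5, 26.1 and 27.1 CPM in knockdown libraries (adjusted p = 7.4e-05). Trim30a, an inhibitor of toll-like receptor signalling, was at 1.31, 1.24 and 1.79 CPM in WT and at 3.23, 2.36 and 2.66 CPM in knockdown libraries (adjusted p = 0.0347). For both genes the groups did not overlap in CPM.

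**Figure D5:**
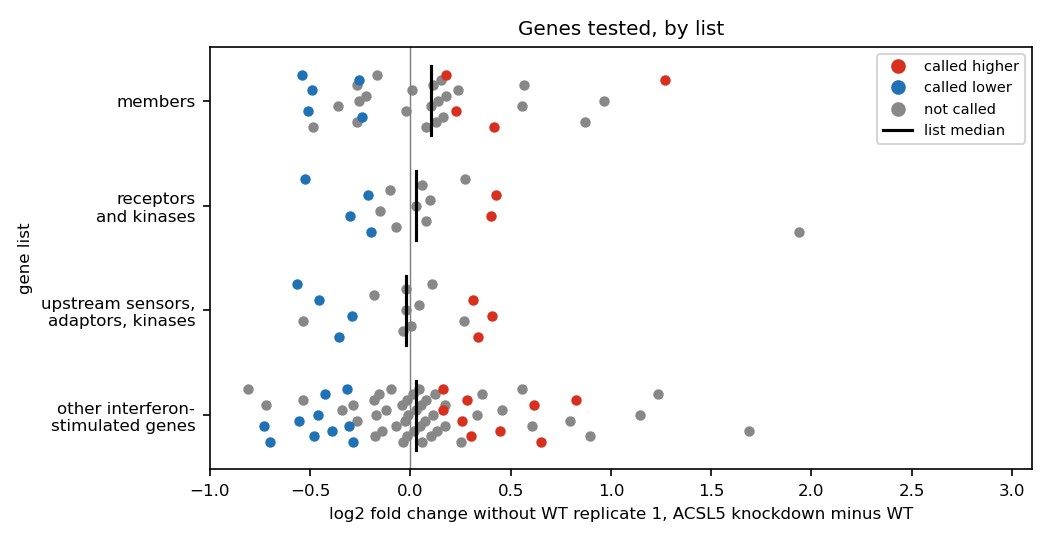
Each point is a gene tested without WT replicate 1, plotted by log2 fold change (knockdown minus WT) in rows for the members and 3 lists of other pathway genes, with vertical jitter; colours give the call and bars the list median. Calls lie on both sides of 0 in all rows, with list medians between -0.022 and 0.10.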

How the data were processed

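RNA sequencing libraries of KPC1199 cells, 3 WT and 3 ACSL5 knockdown, were used. The authors deposited expected counts, of which 10.1% to 13.0% were not whole in a library, and a second table with TPM, both with gene lengths. Tools in the submitters' processing notes are DESeq2, StringTie, HISAT2 and fastp, given with no version. The builds there are hg38 and GRCh38, although gene identifiers are those of mouse. Strandedness is not given in the sources used here.

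Counts were rounded, filtered with filterByExpr, scaled by TMM and tested two-sided with the robust quasi-likelihood test of edgeR 4.0.16 in R 4.3.3. The Benjamini-Hochberg adjustment covered every gene in a fit, and genes with an adjusted p below 0.05 were called. CPM values are TMM-scaled over 6 libraries. SE values and 95% intervals of fold changes derive from the F statistic and are approximate. The fits were tested on simulated counts without an outlying library or a length trend, so that test does not cover these features of WT replicate 1. Intervals and limits from counts cover counting error only.

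Alternatives were DESeq2 1.42.0 or its size factors, library totals, no filter, 1 CPM in every library of a group, and limma 3.58.1 (voom, or log2 TPM with a pseudocount of 1 or 0.1 where a group averaged 1 TPM or more). Others were removal of each library's length trend (lowess, span 0.3), a replicate block, and 1 library left out. Removal of the GC trend, with GC content from GENCODE M21 transcripts for 96.3% of genes in the fit of 5 libraries, was added after the data were examined.

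Members, lists, motifs and the fit without WT replicate 1 were chosen with earlier results of these data known. All members are accounted for. Of each list of other pathway genes, the 4 with the largest called changes are given. Ifnar1, Socs1, Ddx58, Ifnb1, the 4 chemokine genes and single cell type markers were chosen after their values were seen.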

Additional observations from a re-analysis of the deposited data

How the results depend on the processing

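Bst2 and Ifitm3 were called in the same direction under all 17 alternatives of the fit without WT replicate 1. Eif2ak2, Irf1 and Parp14 were called in 15, Tlr3 in 14, Samhd1 in 13, Ifitm2 in 12 and Ifih1 in 9 of the 17. In this fit 9 members called became 5 with log2(TPM + 1) and 5 with log2(TPM + 0.1), and 4 to 11 when a further library was left out. The lowest counts came without WT replicate 2 (4) and without WT replicate 3 (5), where 1 WT library remains and its variation is taken from the knockdown libraries. All genes called went from 5193 to 2467 and 2569 with the TPM settings and 2599 to 6189 with a library left out. Other pathway genes called went from 32 to 12 and 12, and 13 to 36, with 15, 13 and 20 without WT replicate 2, WT replicate 3 and knockdown replicate 2. Higher against lower calls over all genes were 2471 and 2722, and with log2(TPM + 1) 1459 and 1008.

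Over 6 libraries, 0 genes called became 1 with library totals, 4 with no filter, 1127 in DESeq2, 8 in limma-voom, 898 after removal of the length trend and 610 after removal of both trends (length and GC), and ranged from 0 to 5193 with a library left out. Members called became 2 (Bst2 and Ifitm3) after removal of the length trend and 2 after both, and ranged from 0 to 9, the 9 being without WT replicate 1. Other pathway genes called became 4 in DESeq2, 6 and 2 with the trends removed, and ranged from 0 to 32. Acsl5 (log2 fold change -2.43, adjusted p = 0.0619) passed the threshold at -2.31 with library totals, -2.40 with no filter, -2.45 in DESeq2, -2.43 in limma-voom, -2.60 without the length trend and -2.54 without both trends, and ranged from -2.50 to -2.32 with a library left out.

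Some log2 fold changes reversed. Over 6 libraries, none of them called, these were Isg15 (0.066 with library totals, 0.26 in limma-voom, 0.41 and 0.55 with log2(TPM + 1) and log2(TPM + 0.1), 0.45 without the length trend, 0.43 without both trends, 0.17 with the replicate block) and Irf3 (0.12, 0.0084, 0.17, 0.18, 0.19, 0.019 and 0.0029 in the same order, and 0.026 with no filter). In the TPM settings they were also Gbp2 (0.029, 0.056), Oasl1 (0.015, 0.019), Oasl2 (0.19, 0.29), Ifih1 (0.026, 0.070), Dhx58 (0.062, 0.077) and Eif2ak2 (0.29, 0.32), and Parp14 at 0.024 with log2(TPM + 0.1). Adar was at -0.11 without the length trend and -0.16 without both. With a library left out, ranges were -0.54 to 0.57 for Isg15, -0.12 to 0.11 for Irf3, -0.17 to 0.17 for Adar, -0.86 to 0.10 for Ifi27 and -0.67 to 0.19 for Oas1a. In the fit without WT replicate 1, Stat2 was at -0.0068 with the replicate block and -0.0010 without the GC trend, Irf3 at -0.039 and -0.074 without the GC trend and both trends, and Dhx58 at 0.016 and 0.015 in the TPM settings. Ifi35 was at 0.058 with the replicate block, 0.061 and 0.063 in the TPM settings and 0.012 with library totals. With a further library left out, ranges were -0.0096 to 1.71 for Isg15, -0.38 to 0.82 for Mx1, -0.87 to 0.099 for Oas1a, -0.073 to 0.085 for Stat2 and -0.065 to 0.066 for Ifi35. The cause was not tested.

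Whether replicate numbers pair the libraries could not be told. Deviations from the group means of libraries with the same number correlated at -0.15, 0.065 and -0.27. WT replicate 1, which lay apart, weighs on the WT mean. WT replicates 2 and 3 correlated alike with knockdown replicate 1 (0.16 and 0.14), knockdown replicate 2 (0.065 and 0.092) and knockdown replicate 3 (-0.27 and -0.27). With the replicate block, 0 genes and 0 members were called over 6 libraries. Without WT replicate 1 the block gave 5784 genes and 11 members, Ifitm1 (-0.33, adjusted p = 0.00135) and Mavs (0.23, adjusted p = 0.0140) being gained. Knockdown replicate 1 then had no WT library of its number, so the block kept it from informing the fold change. The same members were gained when that library was left out. Members below about 1 CPM rest on few counts, which limits what could be detected.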
